A study of Mus musculus with 12 samples.

Results

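The genes described here are 10 core components of MHC class I antigen presentation, B2m, H2-K1, H2-D1, Tap1, Tap2, Tapbp, Psmb8, Psmb9, Nlrc5 and Erap1, which are 10 of the 24674 genes in the expression table. They were taken by symbol, for their known role, and all 10 were listed. RNA was sequenced from organoids grown from basal cells of the prostate of wild-type C57BL/6 mice (C57BL/6J in the study's methods). Organoids are small 3-dimensional cultures that epithelial cells form in a gel. There were 12 samples in 4 groups of 3, given vehicle, UK5099, butyrate, or UK5099 and butyrate together (the combination). Butyrate is an inhibitor of histone deacetylases. UK5099 blocks the carrier through which pyruvate enters mitochondria. The comparisons asked what each drug alone did to RNA abundance and whether the drugs acted independently when given together.

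MHC class I molecules show peptides from proteins made inside a cell to CD8+ T cells. The proteasome, in part through the inducible subunits of the immunoproteasome, cuts proteins into peptides. The TAP transporter carries the peptides into the endoplasmic reticulum, aminopeptidases trim them there, and tapasin helps load them onto a heavy chain bound to beta-2 microglobulin. Nearly all nucleated cells, epithelial cells included, make class I molecules, and interferons and NF-kappaB raise their transcription.

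The promoters of the class I chains are textbook examples of shared control elements, and they are shown here with those of Tap1 and Tapbp, which lie in the same chromosome region as the heavy chains. RefSeq promoter sequence of the GRCm38.p6 build was matched by symbol for 8 of the 10 genes, and not for Tap2 and Nlrc5. Each sequence below is the 250 bases before the start used in that promoter set, 5′ to 3′ on the strand of the gene. For H2-D1 and Tapbp the window lies inside the gene span of the GENCODE M21 annotation. There the 2 genes start at chr17:35262730 and chr17:33915899. Capitals mark matches, on either strand, to an interferon-stimulated response element core (GAANNGAAA), an NF-kappaB type motif (GGG, any 2 bases, T, any 2 bases, CC), a cyclic AMP response element core (TGACG) or a CCAAT box (CCAAT).

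B2m, chr2:122147437-122147686, + strand: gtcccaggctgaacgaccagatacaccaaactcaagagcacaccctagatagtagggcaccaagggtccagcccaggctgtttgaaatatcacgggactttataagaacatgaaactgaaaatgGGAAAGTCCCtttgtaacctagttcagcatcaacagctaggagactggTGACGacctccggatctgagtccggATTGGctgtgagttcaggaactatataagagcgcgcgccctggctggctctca
H2-K1, chr17:34000348-34000597, - strand: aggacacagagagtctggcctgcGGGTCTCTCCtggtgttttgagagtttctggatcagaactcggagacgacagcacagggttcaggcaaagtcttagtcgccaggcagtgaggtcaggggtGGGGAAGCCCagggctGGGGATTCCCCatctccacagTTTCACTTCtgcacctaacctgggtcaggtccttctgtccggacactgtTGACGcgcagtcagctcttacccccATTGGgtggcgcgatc
H2-D1, chr17:35262844-35263093, + strand: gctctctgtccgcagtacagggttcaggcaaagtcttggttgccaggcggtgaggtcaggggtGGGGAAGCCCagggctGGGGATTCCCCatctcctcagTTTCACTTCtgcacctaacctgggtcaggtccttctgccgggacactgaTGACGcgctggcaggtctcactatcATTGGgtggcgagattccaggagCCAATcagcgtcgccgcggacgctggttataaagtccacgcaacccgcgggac
Tap1, chr17:34187306-34187555, + strand: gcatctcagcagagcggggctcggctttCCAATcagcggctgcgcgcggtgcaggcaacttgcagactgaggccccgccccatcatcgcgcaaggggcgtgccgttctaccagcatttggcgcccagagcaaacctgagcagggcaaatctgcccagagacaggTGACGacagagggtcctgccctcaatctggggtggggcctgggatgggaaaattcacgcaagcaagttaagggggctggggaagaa
Tapbp, chr17:33919228-33919477, + strand: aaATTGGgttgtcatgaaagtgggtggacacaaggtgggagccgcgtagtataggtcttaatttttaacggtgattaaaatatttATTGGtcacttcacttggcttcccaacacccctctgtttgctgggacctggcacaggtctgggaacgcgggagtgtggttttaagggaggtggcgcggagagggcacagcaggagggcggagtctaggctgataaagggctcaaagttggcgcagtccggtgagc

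The H2-K1 and H2-D1 promoters shared an identical run of 47 bases. In both, matches to the NF-kappaB type motif were followed by the interferon element core, the cyclic AMP element core and a CCAAT box, with 2 of the NF-kappaB type matches overlapping each other by all but 1 base. In H2-K1 the interferon element core lay 90 to 82 bases before the start used, and in H2-D1 150 to 142 bases before it. The cyclic AMP element core lay 41 to 37 and 101 to 97 bases before it, the same shift. The spacing between these elements was thus the same, and the distances differ by where the start was placed. B2m had the NF-kappaB type motif, the cyclic AMP element core and the CCAAT box but no match to GAANNGAAA in this window. It did hold GAAACTGAAA shortly before the NF-kappaB type match, with 1 more base between GAA and GAAA. The pattern used misses that spacing, so it does not show that B2m lacks an interferon element. The Tap1 window held a cyclic AMP element core and a CCAAT box, and 225 of its 250 bases were also in the window of Psmb9, which is transcribed the other way. The Tapbp window held only CCAAT boxes, 2 of them. The windows of Psmb8 and Erap1 held none of the 4 motifs. The Erap1 window ended in ttcactttc, which on the other strand holds GAAA, 2 bases and GAA, an order the pattern misses. As for B2m, the lack of a match does not show that a window lacks an interferon element. Of the 8 promoters, 2 held GAANNGAAA as written, 3 the NF-kappaB type motif, 5 the cyclic AMP element core and 6 the CCAAT box. Over 27025 mouse promoter windows of the same length the shares were 6.34%, 15.7%, 17.9% and 34.5%. The cyclic AMP and CCAAT matches of Tap1 and Psmb9 are the same sites in the bases they share, counted in both windows. The 8 windows are thus not separate, and the counts were not tested against these shares. The matches describe letters only, and binding was not measured.

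The expression values were transcripts per 1000000 (TPM) as deposited, and each gene's fragments had been divided by its span in the genome, introns included. Depth, recovered from the steps in these values, was 33251845 to 43498957 fragments per sample. In the UK5099 and combination groups replicate 1 stood apart from the others. The chi-square over degrees of freedom of its fragments was 5.80 and 6.02 against replicates 2 and 3 under UK5099, where that pair gave 2.53, and 6.11 and 5.84 under the combination, where that pair gave 1.94. The 7 epithelial markers examined were all abundant, between 7053 fragments of Trp63 and 291317 of Krt5 at the extremes, and they moved both ways. Krt5, a basal keratin, averaged 1848 TPM in vehicle, 4930 under UK5099, 3152 under butyrate and 4514 under the combination, and Krt14 1676, 5047, 1391 and 3641 TPM. The basal transcription factor gene Trp63 averaged 5.23, 9.59, 8.46 and 8.76 TPM in the same order. The luminal keratin Krt8 averaged 916, 364, 275 and 119 TPM, Krt18 1468, 748, 613 and 359, and the adhesion genes Epcam and Cdh1 were likewise lowest under the combination, at 95.4 and 84.9 TPM against 536 and 172 in vehicle. The summed level of all 7 was 6567 to 6682 TPM in vehicle, 11298 to 11781 under UK5099, 5640 to 5846 under butyrate and 8719 to 8984 under the combination. Of 12 leukocyte markers 6 were listed. Ptprc had 0 to 4 fragments per sample and was at 0 in 5 samples, Laptm5 had 0 to 10, Itgam 0 to 12, Csf1r 1 to 7.4 and Cd79a 3 to 32. The sixth, Cd68, had 300 to 2079 fragments, and with it the summed level of the list was 23.99 to 25.15 TPM in vehicle, 29.8 to 31.1 under UK5099, 66.8 to 69.4 under butyrate and 87.1 to 97.7 under the combination. Of 7 stromal markers, Dcn reached 3456 fragments and Col1a1 149, and the summed level was 2.34 to 2.49 TPM in vehicle, 2.65 to 2.96 under UK5099, 10.70 to 11.03 under butyrate and 2.31 to 2.698 under the combination. The 4 listed of 5 endothelial markers summed to at most 0.0426 TPM in any sample. The part of these levels in the results was not tested. In bulk RNA, fewer cells of a type and less RNA per cell cannot be told apart.

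Most of the genes lie close together. In the coordinates of the table, whose build it does not name, 7 of the 10 were on chromosome 17: Tapbp at chr17:34134873-34148267, H2-K1 at chr17:34214991-34219322, Psmb9 at chr17:34400961-34406739, Tap1 at chr17:34406527-34416200, Psmb8 at chr17:34416695-34420429, Tap2 at chr17:34422501-34435296 and H2-D1 at chr17:35481706-35486476. B2m was at chr2:121978167-121983565, Nlrc5 at chr8:95160984-95253901 and Erap1 at chr13:74787687-74841321. Spans overlapped for Tap1 and Psmb9 by 213 bp, for Tap2 and the lncRNA Gm15821 by 3149 bp, and for Erap1 and Cast by 835 bp. Tapbp overlapped Zbtb22, on the same strand, by 3423 bp and the lncRNA Gm19412 by 1210 bp. Values under 1000 fragments came out whole for Psmb8 and Nlrc5 in 12 of 12 samples, for Psmb9 and Tap2 in 0 of 12 and for Tap1 in 0 of 10, within 0.02 of a fragment. Fractional values are what dividing a read among genes gives. Tapbp and Erap1 were above 1000 fragments in every sample and so outside this check. Their values were fractional too, for example 4302.45 for Tapbp and 1082.12 for Erap1. The study's methods name RSEM, which divides shared reads by estimated abundance, but the submitters' notes list another tool and these TPM divide by genomic span. How reads were divided is therefore uncertain for Psmb9, Tap1, Tap2, Tapbp and Erap1. H2-K1 and H2-D1 are close paralogues, and the same holds for reads they share.

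In vehicle, B2m had the highest level per exonic length and Nlrc5 the lowest. On the scale of fragments per exonic kilobase and 1000000 fragments, B2m was at 215, H2-K1 at 151 and H2-D1 at 147, above 98% of 15901 protein-coding genes, with percentiles of 99.1, 98.7 and 98.6. H2-K1 and H2-D1 were next to each other, with samples from 148 to 154 and from 146 to 148, so that they nearly touched. Tapbp was next at 64.0, followed by Erap1 at 5.69, Tap2 at 5.26 and Tap1 at 4.14. Erap1 samples lay between 5.63 and 5.80 and did not overlap those of Tap2, which lay between 5.08 and 5.44. Psmb8 was at 1.57, Psmb9 at 0.709 and Nlrc5 at 0.102, the last with only 24 to 40 fragments per sample.

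On TPM as deposited UK5099 lowered all 10 genes, against 24.7% of all genes, Nlrc5 to 21.8% and the other 9 to between 57.5% and 85.3% of the vehicle mean. Butyrate lowered 6 of them, Tapbp and B2m the most, against 35.9% of all genes, and the combination lowered 8, against 40.8%. Under median of ratios scaling, described below, 7, 6 and 5 were lower. On the deposited scale all 10 coefficients against vehicle were below 0 in each treatment. The plot of TPM by sample shows that the groups were narrow and mostly apart.

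**Figure D1:**
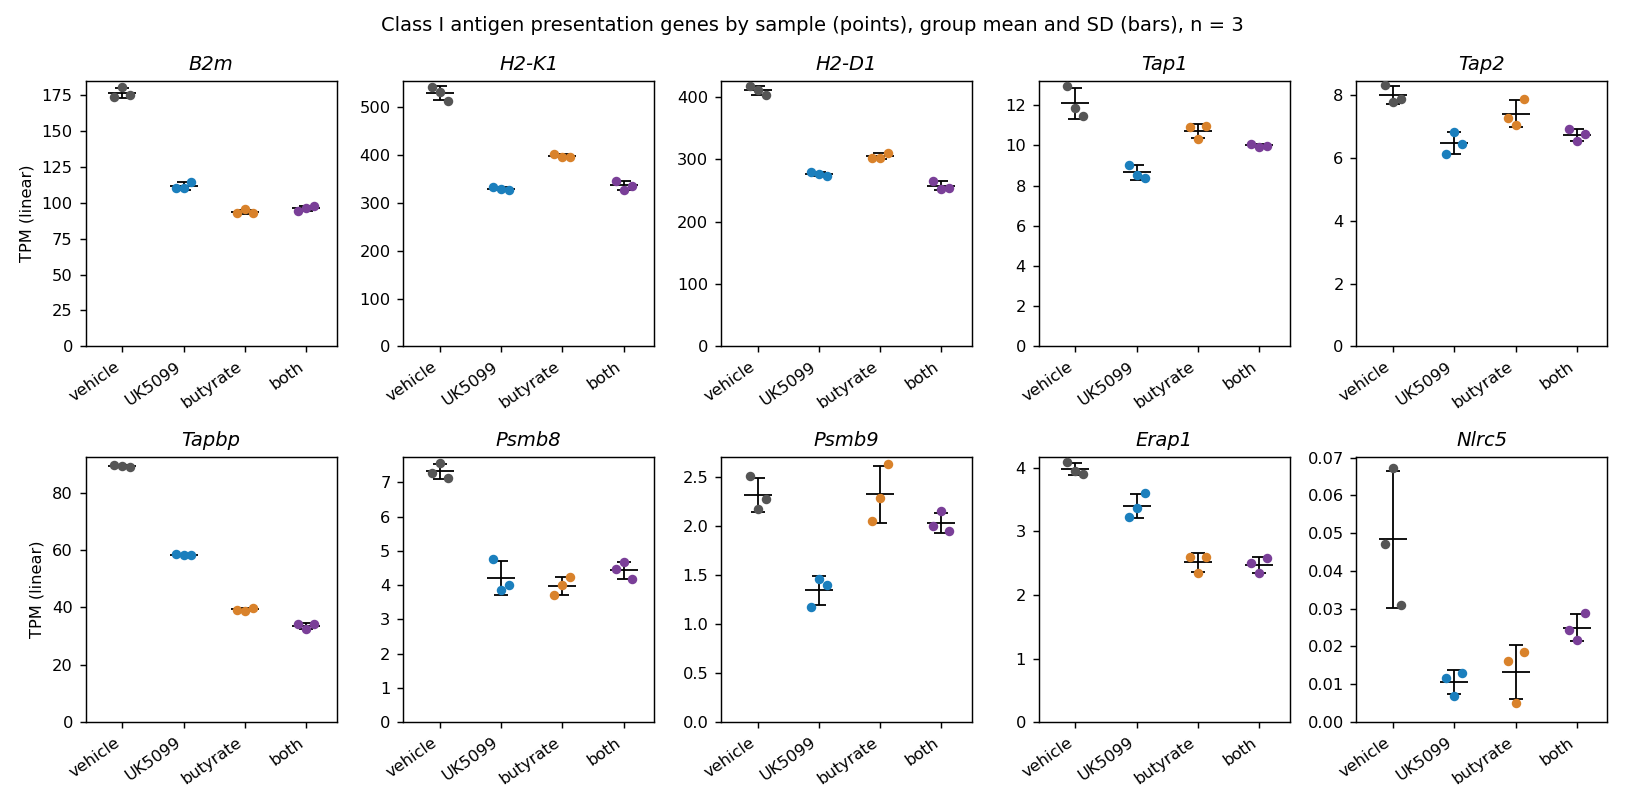
TPM of the 10 genes in each of the 12 samples (points), with group mean and SD (black bars, n = 3), on linear axes that start at 0 and differ between genes; "both" is the combination. Every UK5099 value lies under every vehicle value for all 10 genes, while under butyrate Psmb9 has values of 2.05 to 2.63 TPM around the vehicle values of 2.17 to 2.50.

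B2m encodes beta-2 microglobulin, the light chain of every class I molecule. The vehicle samples were at 174, 180 and 175 TPM, the UK5099 samples at 110.0, 110.2 and 115 TPM, the butyrate samples at 93.0, 95.4 and 92.7 TPM and the combination samples at 94.2, 96.4 and 97.8 TPM. All treated samples were under all vehicle samples, and butyrate and the combination overlapped. The limma coefficient on log2(TPM + 1), which is a difference from vehicle, was −0.66 ± 0.02 (SE) under UK5099 (adjusted p = 3.88e-08), −0.91 ± 0.02 under butyrate (adjusted p = 1.87e-09) and −0.87 ± 0.02 under the combination (adjusted p = 1.11e-09). The combination value shrank to −0.41 under median of ratios scaling.

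H2-K1 and H2-D1 encode the classical heavy chains that hold the peptide. H2-K1 was at 542, 531 and 514 TPM in vehicle, at 333, 329 and 326 TPM under UK5099, at 401, 396 and 396 TPM under butyrate and at 345, 328 and 336 TPM under the combination. H2-D1 was at 403 to 417 TPM in vehicle, 273 to 279 under UK5099, 301 to 310.0 under butyrate and 252 to 265 under the combination. For both genes the UK5099 values lay under the butyrate values, the reverse of B2m. The coefficients of H2-K1 were −0.68 ± 0.02 under UK5099, −0.41 ± 0.02 under butyrate and −0.65 ± 0.02 under the combination, with adjusted p-values of 3.22e-08, 2.64e-07 and 6.96e-09. Those of H2-D1 were −0.57, −0.43 and −0.67, with adjusted p-values of 7.66e-08, 1.41e-07 and 4.26e-09. The butyrate values shrank to −0.09 for H2-K1 and −0.11 for H2-D1 under median of ratios scaling, and the combination values to −0.19 and −0.21.

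Tap1 and Tap2 together encode the peptide transporter, and Tapbp encodes tapasin, which bridges the transporter and the heavy chain. Tapbp was at 89.7, 89.2 and 89.2 TPM in vehicle, at 58.7, 58.2 and 58.4 TPM under UK5099, at 39.2, 38.8 and 39.9 TPM under butyrate and at 34.1, 32.3 and 34.1 TPM under the combination. The 4 groups of Tapbp did not overlap, and each treatment was lower than the one before it in this order. The coefficient of Tapbp was −0.60 ± 0.02 under UK5099 (adjusted p = 2.72e-08), −1.17 ± 0.02 under butyrate (adjusted p = 2.32e-10) and −1.39 ± 0.02 under the combination (adjusted p = 4.88e-11). Tap1 and Tap2 moved less. Tap1 was at 11.5 to 13.0 TPM in vehicle, 8.37 to 9.04 under UK5099, 10.3 to 10.9 under butyrate and 9.93 to 10.1 under the combination. Tap2 was at 7.79 to 8.35 TPM in vehicle, 6.14 to 6.85 under UK5099, 7.07 to 7.90 under butyrate and 6.55 to 6.92 under the combination. UK5099 lowered Tap1 by a coefficient of −0.44 ± 0.04 (adjusted p = 2.68e-05) and Tap2 by −0.27 ± 0.05 (adjusted p = 0.000953). With butyrate alone neither passed the threshold, at −0.16 (adjusted p = 0.0107) and −0.10 (adjusted p = 0.0993). With the combination Tap1 was at −0.25 (adjusted p = 0.000619) and Tap2 at −0.22 (adjusted p = 0.00213), and both of these signs turned positive under another scaling given below.

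Psmb8 and Psmb9 encode inducible catalytic subunits that replace constitutive ones in the immunoproteasome, and they differed under butyrate. Psmb8 was at 7.28, 7.56 and 7.13 TPM in vehicle, at 4.77, 3.84 and 4.01 TPM under UK5099, at 3.71, 4.01 and 4.22 TPM under butyrate and at 4.47, 4.66 and 4.17 TPM under the combination. Psmb9 was at 2.50, 2.17 and 2.28 TPM in vehicle, at 1.17, 1.46 and 1.39 TPM under UK5099, at 2.05, 2.28 and 2.63 TPM under butyrate and at 2.00, 2.15 and 1.95 TPM under the combination. The 3 treatments of Psmb8 overlapped one another and lay under vehicle, whereas Psmb9 was low under UK5099 alone and overlapped vehicle under butyrate. The coefficients of Psmb8 were −0.68 ± 0.07 (adjusted p = 2.73e-05), −0.74 ± 0.07 (adjusted p = 6.78e-06) and −0.62 ± 0.07 (adjusted p = 2.15e-05) under UK5099, butyrate and the combination. Those of Psmb9 were −0.50 ± 0.07 (adjusted p = 0.000288), −0.00030 ± 0.07 (adjusted p = 0.999) and −0.13 ± 0.07 (adjusted p = 0.152). Directly against UK5099, butyrate gave a higher Psmb9 by 0.50 ± 0.07 (adjusted p = 0.000236).

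Erap1 encodes the aminopeptidase that trims peptides in the endoplasmic reticulum, and it fell under butyrate more than under UK5099. It was at 3.91 to 4.09 TPM in vehicle, 3.23 to 3.61 under UK5099, 2.34 to 2.60 under butyrate and 2.34 to 2.58 under the combination. The coefficient was −0.18 ± 0.04 under UK5099 (adjusted p = 0.0057), −0.51 ± 0.04 under butyrate (adjusted p = 3.2e-06) and −0.52 ± 0.04 under the combination (adjusted p = 1.92e-06). The difference between butyrate and UK5099 was −0.33 ± 0.04 (adjusted p = 0.000117).

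Nlrc5 encodes a transactivator of class I genes and had the fewest fragments. It had 29, 40 and 24 fragments in the vehicle samples, 8, 5 and 10 under UK5099, 14, 4 and 15 under butyrate and 25, 20 and 28 under the combination. Every sample of either single drug was under every vehicle sample, and the combination overlapped vehicle in fragments. At a mean of 0.0484 TPM in vehicle, the log2(TPM + 1) scale leaves almost no room for a difference, and the coefficients were −0.05 under UK5099 (adjusted p = 0.00997) and −0.05 under butyrate (adjusted p = 0.011). In limma voom on the recovered fragments, which weights a count by its precision, the log2 difference was −1.97 ± 0.44 under UK5099 (adjusted p = 0.000738), −1.57 ± 0.41 under butyrate (adjusted p = 0.00227) and −0.46 ± 0.42 under the combination (adjusted p = 0.385).

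Genes across the table also moved, and the count of members reads against that background. At an adjusted p-value under 0.01, UK5099 lowered 10 of 10 members and 24.7% of all genes, butyrate lowered 6 of 10 and 35.9% of all genes, and the combination lowered 8 of 10 and 40.8% of all genes. These shares are over all 24674 genes, among them genes too low for this scale to show a difference. Of the members, 9 averaged 1 TPM or more, and no share over such genes is given here. Without UK5099 replicate 1, one of the samples that stood apart, UK5099 lowered 8 members, and without combination replicate 1 the combination still lowered 8. With any sample left out in turn the counts were 8 to 9 for UK5099, 6 to 8 for butyrate and 7 to 8 for the combination. Nlrc5 lost its UK5099 call in 11 of 12 such fits (adjusted p up to 0.0346) and Erap1 in 5 (adjusted p up to 0.0239). The member counts in these 3 comparisons rest on the same vehicle samples. The median coefficient of the members was −0.54 under UK5099, −0.42 under butyrate and −0.57 under the combination. Over all genes it was −0.03, −0.07 and −0.11, and over genes averaging 1 TPM or more −0.12, −0.30 and −0.41. Every treated value lay under every vehicle value for 10, 8 and 10 members, and for 35.1%, 44.2% and 49.1% of all genes. The study's methods also asked for a coefficient past 1 in size. With both limits limma called 0 members under UK5099, against 1.84% of all genes, with all 10 under the p-value threshold and none past the limit on the coefficient, and limma voom on fragments called 1, Nlrc5. Butyrate and the combination each called Tapbp alone, against 3.54% and 6.42% of all genes, and in both Tapbp was inside the limit after median of ratios scaling, at −0.85 and −0.93. In voom, butyrate called Nlrc5 (−1.57) in place of Tapbp (−0.87), and the combination called Tapbp at −1.03.

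The size of the butyrate differences depended on scaling, and for Tap1 and Tap2 the sign did too. Tap1 went from −0.16 (adjusted p = 0.0107) to 0.13 (adjusted p = 0.0234) under median of ratios scaling and passed on neither scale. Psmb9, at −0.00030 as deposited, was at 0.22 on that scale and did not pass (adjusted p = 0.0286). Median of ratios scaling, which sets the typical gene to no change, moved the median over genes averaging 1 TPM or more from −0.30 to −0.03 for butyrate and from −0.41 to −0.03 for the combination. UK5099 still lowered 7 members, against 13.7% of all genes. B2m was at −0.51, H2-K1 at −0.53, H2-D1 at −0.42, Tapbp at −0.46, Psmb8 at −0.54, Psmb9 at −0.39 and Tap1 at −0.30, and Tap2 (adjusted p = 0.0391), Nlrc5 (adjusted p = 0.02) and Erap1 (adjusted p = 0.263) no longer passed. With butyrate 6 members were lower, against 20.3% of all genes, and 1 was higher, against 18.5%. Tapbp (−0.85), B2m (−0.59), Psmb8 (−0.47) and Erap1 (−0.26) remained clearly lower, H2-K1 and H2-D1 passed at the values given above, and Tap2 was higher by 0.18 (adjusted p = 0.00794). Under the combination 5 members were lower, against 22.5% of all genes, Psmb8 no longer passed (−0.22, adjusted p = 0.022), and Tap1 and Tap2 were higher by 0.18 and 0.19, against 21.7% of all genes. On this scale the median coefficient of the members was −0.40 under UK5099, −0.10 under butyrate and −0.18 under the combination.

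**Figure D2:**
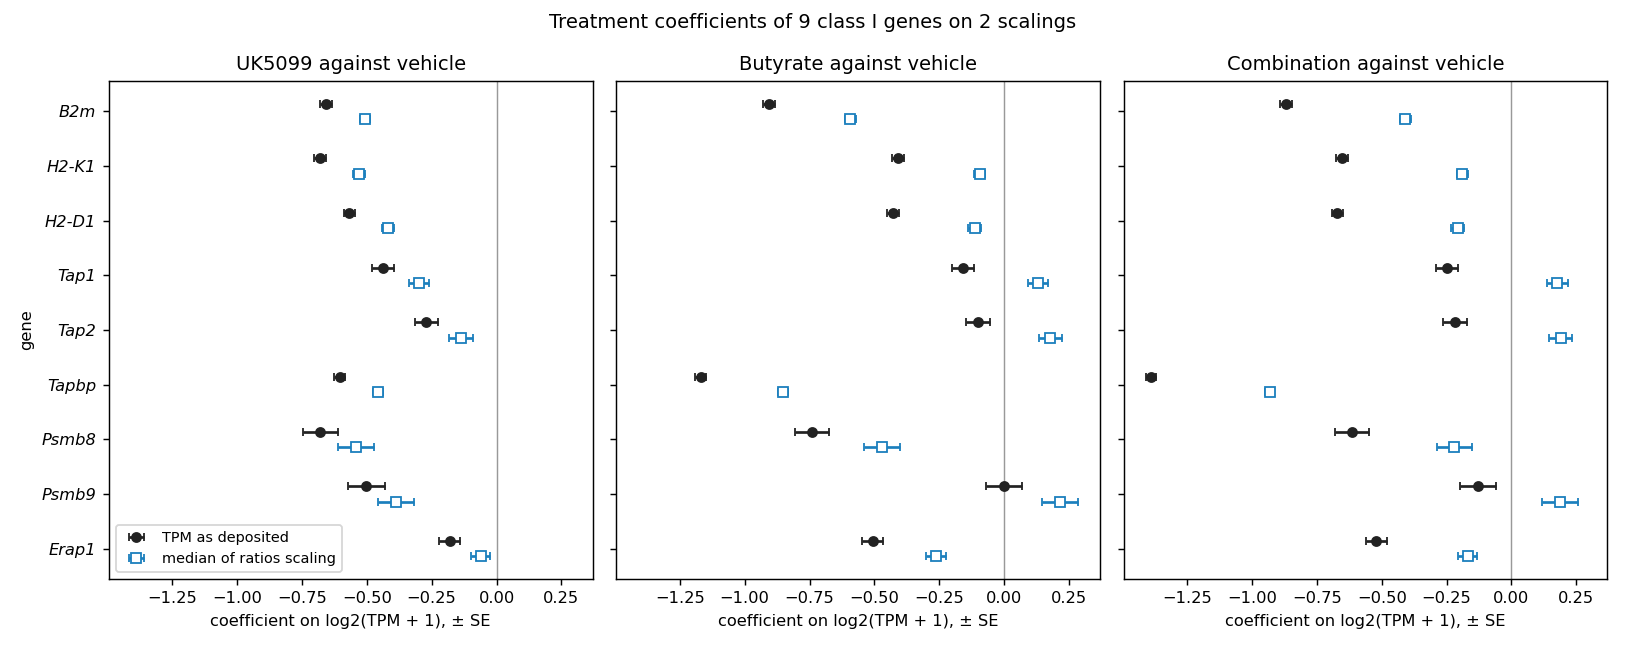
Limma coefficients against vehicle on log2(TPM + 1), with SE, for 9 of the genes, on TPM as deposited (filled circles) and after median of ratios scaling (open squares); Nlrc5, at under 0.1 TPM, is left out. With UK5099 all 9 lie below 0 on both scales, while under the combination Tap1 is at −0.25 on the one and 0.18 on the other.

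The 2 single drugs were also set against each other. Butyrate gave lower values than UK5099 for 3 members, Tapbp at −0.56 ± 0.02 (adjusted p = 3.25e-08), Erap1 and B2m at −0.25 ± 0.02 (adjusted p = 1.42e-05), against 27.5% of all genes. It gave higher values for 4, H2-K1 at 0.27, H2-D1 at 0.14, Tap1 at 0.28 and Psmb9, against 9.97% of all genes. Under median of ratios scaling H2-K1, H2-D1, Tap1 and Psmb9 were higher under butyrate by 0.44, 0.31, 0.43 and 0.61. Tapbp, Erap1 and B2m were lower by coefficients of −0.40, −0.20 and −0.09. Tap2, which did not pass as deposited (0.17, adjusted p = 0.0118), was also higher on this scale, by 0.32 (adjusted p = 0.000297). So the heavy chains, Tap1 and Psmb9 were lower under UK5099 than under butyrate, and tapasin, Erap1 and B2m the other way, on both scales, but on voom the B2m difference was −0.02 (adjusted p = 0.577).

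Adding UK5099 to butyrate changed 3 members, all lower, against 27.5% of all genes in either direction. These were H2-K1 at −0.24 ± 0.02 (adjusted p = 3.98e-05), H2-D1 at −0.24 ± 0.02 (adjusted p = 3.03e-05) and Tapbp at −0.22 ± 0.02 (adjusted p = 2.66e-05), and under median of ratios scaling none of the 3 passed, at −0.10, −0.09 and −0.08. B2m, at 0.04 (adjusted p = 0.287) as deposited, was instead higher by 0.18 under that scaling (adjusted p = 0.000153) and by 0.11 in voom (adjusted p = 0.00151). Adding butyrate to UK5099 lowered 4, Tapbp at −0.78, Erap1 at −0.34, B2m at −0.22 and H2-D1 at −0.10, against 35.3% of all genes. It raised Tap1 by 0.19 and Psmb9 by 0.37, against 7.62% of all genes. Most of these calls changed under median of ratios scaling, where 1 member was lower, against 18.7% of all genes, and 7 were higher, against 17.1%. Tapbp stayed lower at −0.48, and Erap1 no longer passed (−0.11, adjusted p = 0.041). B2m and H2-D1 turned to higher, at 0.10 and 0.21, H2-K1, Tap2 and Psmb8 became higher, at 0.34, 0.33 and 0.32, and Tap1 and Psmb9 stayed higher at 0.48 and 0.58. Voom on fragments gave the same 7 as higher, with Nlrc5 besides at 1.51 (adjusted p = 0.00533), and kept Erap1 lower (−0.15, adjusted p = 0.00676). Without combination replicate 1 the TPM fit raised 1 member, and without UK5099 replicate 1 it lowered 3.

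For 6 of the genes the effects of the drugs did not add up on the log2 scale. The interaction coefficient, the difference between the effect of both drugs and the sum of the single effects, was above 0 for all 10 members and passed an adjusted p-value under 0.01 for 6, against 7.01% of all genes. It was 0.81 ± 0.09 for Psmb8, 0.69 ± 0.03 for B2m, 0.44 ± 0.03 for H2-K1, 0.38 ± 0.03 for Tapbp, 0.35 ± 0.06 for Tap1 and 0.32 ± 0.03 for H2-D1. In B2m, for example, the single drugs lowered the gene to 63.3% and 53.1% of the vehicle mean in TPM and the combination left it at 54.4%. Psmb9 (adjusted p = 0.0255), Nlrc5 (adjusted p = 0.0278), Erap1 (adjusted p = 0.0764) and Tap2 (adjusted p = 0.143) did not pass. Nlrc5 passed in limma with a pseudocount of 0.1 (adjusted p = 0.00864) and in voom on fragments, at 3.09 ± 0.61 (adjusted p = 0.000437). The median interaction over all genes was 0.0020 and over the members 0.36. The same 6 members passed after median of ratios scaling, with a median of 0.35 over the 10, and 6 passed without either sample that stood apart.

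**Figure D3:**
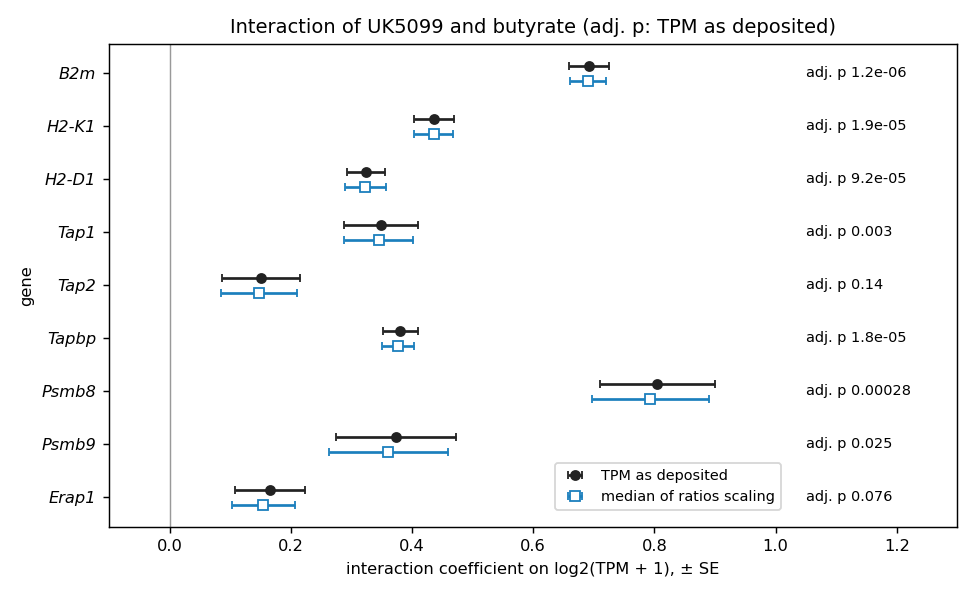
Interaction coefficients on log2(TPM + 1), with SE, for 9 of the genes on TPM as deposited (filled circles) and after median of ratios scaling (open squares); Nlrc5 is left out. All lie above 0 on both scales, from 0.15 for Tap2 to 0.81 for Psmb8.

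Ratios between genes within a sample do not depend on how samples are scaled. Per exonic length, B2m over H2-K1 was 1.42 ± 0.0481 in vehicle and 1.44 ± 0.0477 under UK5099 (SD, n = 3), and the groups overlapped. With butyrate the ratio was 1.00 ± 0.0201 and under the combination 1.22 ± 0.0490, each apart from vehicle. Psmb8 over Psmb5, an inducible subunit over the constitutive one it replaces, was 0.0236 in vehicle, 0.0175 under UK5099, 0.0188 under butyrate and 0.0225 under the combination, the last overlapping vehicle. Psmb9 over Psmb6 was 0.0123 ± 0.00107 in vehicle, 0.00863 ± 0.00102 under UK5099, 0.0176 ± 0.00154 under butyrate and 0.0165 ± 0.00119 under the combination, and all 3 treated groups were apart from vehicle, UK5099 below it and the others above it. Psmb10 over Psmb7, the third such pair, was 0.156 in vehicle, 0.116 under UK5099, 0.0837 under butyrate and 0.0781 under the combination, all treated values under vehicle. The means of these 3 ratios therefore had different orders over the 4 groups, but not every step was apart. UK5099 and butyrate overlapped for Psmb8 over Psmb5. Butyrate and the combination overlapped for Psmb9 over Psmb6 and for Psmb10 over Psmb7. With 3 samples against 3, an exact permutation test cannot go below p = 0.10, and none was run on the ratios.

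**Figure D4:**
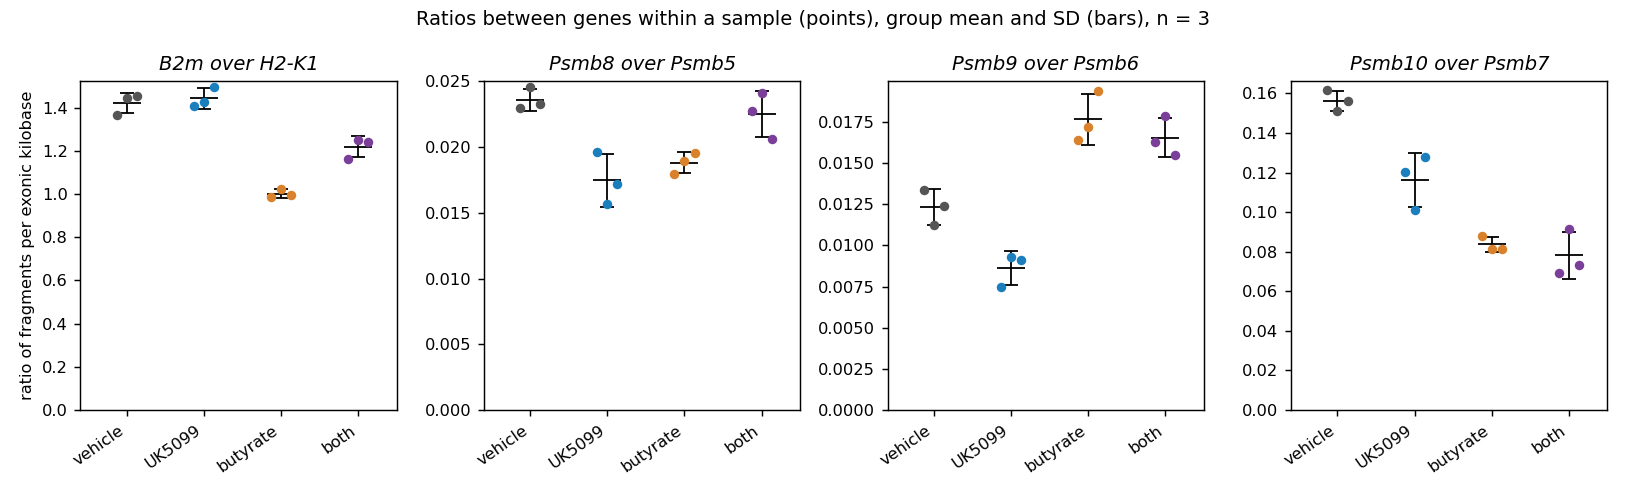
Ratios of fragments per exonic kilobase between 2 genes of the same sample (points), with group mean and SD (bars, n = 3), on axes that start at 0. Psmb9 over Psmb6 is lowest under UK5099 (0.00863) and highest under butyrate (0.0176), whereas Psmb10 over Psmb7 falls from 0.156 in vehicle to 0.0781 under the combination.

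Genes listed as partners of the members were mostly lower too. Those listed for the peptide loading complex were Calr, Canx, Pdia3, Tapbpl, Uggt1 and Hspa5, the last a general chaperone. Of these 6, 6 were lower under UK5099, 6 under butyrate and 6 under the combination, with medians of −0.44, −0.68 and −0.91. Of all genes, 24.7%, 35.9% and 40.8% were lower. After median of ratios scaling 6, 5 and 6 were lower, with medians of −0.30, −0.38 and −0.47. Tapbpl, a tapasin relative that edits peptides, went from 18.6 ± 0.221 TPM in vehicle to 13.6 ± 0.596 under UK5099, 7.01 ± 0.271 under butyrate and 7.73 ± 0.517 under the combination. Pdia3, the disulfide isomerase bound to tapasin, went from 130 to 93.6, 77.7 and 62.8 TPM. Both remained lower under median of ratios scaling, Tapbpl by coefficients of −0.28, −0.995 and −0.74 and Pdia3 by −0.32, −0.42 and −0.58.

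Those listed for the immunoproteasome were Psmb10, Psme1, Psme2, Psme3 and Pomp, and Psme3 and Pomp are not particular to it. Of these 5, 5 were lower in each treatment, with medians of −0.42, −0.97 and −1.12, beside the same shares of all genes. After median of ratios scaling 3, 4 and 4 were lower, with medians of −0.27, −0.65 and −0.68, and under UK5099 Pomp (0.02, adjusted p = 0.646) and Psme3 (0.01, adjusted p = 0.876) no longer passed. Psmb10, the inducible subunit of the same family as Psmb8 and Psmb9, was at 14.4 ± 0.626 TPM in vehicle, 9.21 ± 0.961 under UK5099, 5.48 ± 0.255 under butyrate and 4.74 ± 0.654 under the combination. Psme1 and Psme2, the proteasome activator subunits, had coefficients of −0.97 and −1.03 under butyrate, and both stayed lower under median of ratios scaling at −0.65 and −0.73. The 3 constitutive catalytic subunits were lower in each treatment as well, by less. Psmb5 had coefficients of −0.36, −0.55 and −0.64, Psmb6 of −0.27, −0.52 and −0.61 and Psmb7 of −0.19, −0.43 and −0.52 under UK5099, butyrate and the combination. Under median of ratios scaling the 3 subunits lay between −0.235 and −0.15 under butyrate and between −0.186 and −0.115 under the combination, and passed in both. Under UK5099 only Psmb5 still passed, at −0.21, with Psmb6 at −0.12 (adjusted p = 0.0141) and Psmb7 at −0.05 (adjusted p = 0.0903). Of 5 other peptide trimming enzymes 2 were lower and 2 higher under UK5099, 2 lower and 0 higher under butyrate, and 3 lower and 2 higher under the combination. The share of all genes that were higher was 8.24% under UK5099, 9.7% under butyrate and 10.1% under the combination. Under median of ratios scaling 2 of the 5 were lower and 3 higher under UK5099, 1 lower and 3 higher under butyrate, where the median turned from −0.07 to 0.22, and 2 lower and 2 higher under the combination. On that scale 13.5%, 18.5% and 21.7% of all genes were higher.

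The other class I heavy chains did not move as one. Of 16, 14 were listed, and 7 were lower and 1 higher under UK5099, 5 lower and 3 higher under butyrate, and 7 lower and 2 higher under the combination. The medians of the 14 were −0.23, −0.06 and −0.23. Of all genes as deposited, 24.7%, 35.9% and 40.8% were lower and 8.24%, 9.7% and 10.1% higher. Median of ratios scaling gave 4 lower and 2 higher, 3 lower and 5 higher, and 5 lower and 4 higher in the same order. The medians were then −0.18, 0.12 and −0.02. On that scale 13.7%, 20.3% and 22.5% of all genes were lower and 13.5%, 18.5% and 21.7% higher. H2-Q4 fell from 32.4 ± 1.10 TPM in vehicle to 14.3 ± 0.496 under UK5099, 14.4 ± 0.104 under butyrate and 12.3 ± 0.403 under the combination, and its interaction coefficient was 0.92 (adjusted p = 1.61e-06). Cd1d1, which presents lipids, fell from 4.02 to 2.16, 0.741 and 0.839 TPM. H2-Q7 and Mr1 rose under butyrate, H2-Q7 from 3.17 ± 0.495 to 7.96 ± 0.549 TPM and Mr1, which presents metabolites of riboflavin synthesis, from 4.55 ± 0.173 to 10.8 ± 0.0743 TPM. With UK5099 these 2 differed, Mr1 rising to 6.82 TPM and H2-Q7 falling to 1.96 TPM, and the H2-Q7 difference did not pass under median of ratios scaling (adjusted p = 0.0192). H2-Q genes are close copies of one another, and how their reads were divided is uncertain.

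Among 17 transcription factors of class I and interferon control, 12 were lower and 1 higher under UK5099 and 13 lower and 1 higher under butyrate. Under the combination 15 were lower and 0 higher. Of all genes, 24.7%, 35.9% and 40.8% were lower and 8.24%, 9.7% and 10.1% higher in the same order. After median of ratios scaling the counts of the 17 were 9 and 2, 9 and 2, and 11 and 2. Their medians went from −0.31, −0.42 and −0.72 to −0.17, −0.14 and −0.31. On that scale 13.7%, 20.3% and 22.5% of all genes were lower and 13.5%, 18.5% and 21.7% higher. Irf9, the DNA-binding subunit of the interferon-stimulated complex, fell from 48.2 ± 1.08 TPM in vehicle to 22.1 ± 1.02 under UK5099, 19.9 ± 0.598 under butyrate and 15.1 ± 0.503 under the combination. Its coefficients were −1.09, −1.23 and −1.61, and −0.94, −0.93 and −1.17 under median of ratios scaling. The NF-kappaB subunit genes Nfkb2, Relb and Rela had coefficients of −1.27, −1.11 and −0.85 under butyrate and −0.58, −0.59 and −0.32 under UK5099. Each of these was also lower under median of ratios scaling, from −0.96 for Nfkb2 under butyrate to −0.18 for Rela under UK5099.

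Of 10 interferon receptor and kinase genes, 8 were lower and 0 higher under UK5099, and 9 lower and 1 higher under butyrate and under the combination. Under median of ratios scaling 7, 8 and 8 were lower and 0, 1 and 1 higher. Of all genes as deposited, 24.7%, 35.9% and 40.8% were lower and 8.24%, 9.7% and 10.1% higher. On the median of ratios scale 13.7%, 20.3% and 22.5% of all genes were lower and 13.5%, 18.5% and 21.7% higher. Ifngr2, a chain of the interferon gamma receptor, fell from 32.9 to 20.4, 13.5 and 10.1 TPM, Ifnar1, a chain of the type I receptor, from 18.9 to 14.2, 9.86 and 8.29 TPM, and Ifnlr1, a chain of the type III receptor, from 6.65 to 4.20, 3.02 and 2.42 TPM in the order UK5099, butyrate and combination. The one gene that rose was Socs1, an inhibitor of the kinases, from 1.68 ± 0.300 TPM in vehicle to 5.29 ± 0.187 under butyrate and 6.79 ± 0.513 under the combination. Of 6 interferon genes 2 were listed. Ifne, the epithelial type I interferon, was at 2.47 ± 0.723 TPM in vehicle, 3.60 ± 0.355 under UK5099, 8.97 ± 0.219 under butyrate and 4.04 ± 1.18 under the combination, at most 57 fragments in a sample, and rose under butyrate by 1.54 (adjusted p = 4.2e-05). Of 8 class II genes and chaperones 6 were listed, and 1 was lower under UK5099. Under butyrate 1 was lower and 2 higher, and under the combination 1 lower and 3 higher. After median of ratios scaling 1 was lower under UK5099, 1 lower and 3 higher under butyrate, and 0 lower and 3 higher under the combination. The shares of all genes on both scales are those given above for the receptor and kinase genes. H2-Aa was not listed, and Cd74, a class II chaperone, averaged 0.737 TPM in vehicle, 0.126 under UK5099, 0.307 under butyrate and 0.369 under the combination. H2-Ab1, a class II beta chain, was at 0.445 ± 0.0571 TPM in vehicle, 0.541 ± 0.101 under UK5099, 6.44 ± 0.415 under butyrate and 6.36 ± 0.234 under the combination.

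The 5 genes whose coefficients came closest to the member medians were Pard6a, Scx, Prdx1, Mitd1 and Bfar, of 10039 protein-coding genes averaging 1 TPM or more outside the members and lists. Their root mean square distance over the 3 coefficients against vehicle was 0.0179, 0.0400, 0.0425, 0.0532 and 0.0547. Prdx1, a peroxidase, for example had coefficients of −0.48, −0.42 and −0.61. This likeness covers 3 contrasts that share vehicle samples.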

How the data were processed

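RNA abundance of basal-derived mouse prostate organoids was measured in 12 samples. The authors deposited TPM per gene. The study's methods name fastp, STAR and RSEM with GRCm38, and the submitters' processing notes list STAR 2.7.9a, Partek and GRCm39; the table names no build, and library kit and sequencer also differ between labels and methods. The listed length was the genomic span in 100% of genes, so the deposited TPM divides by introns too and total 1000000 per sample. Between 66.0% and 67.1% of values under 1000 fragments were whole multiples of 1 fragment within 0.02, which gave fragments and depth (33251845 to 43498957). Dose, duration and the strand setting of the counting are not given in the sources used here for these samples.

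Groups came from the labels, which number samples 1 to 3 without naming separate animals or cultures, so p-values measure the spread between these samples. The 12 replicate pairs differed beyond sampling noise (chi-square over degrees of freedom 1.89 to 6.11). Following the study's methods, limma 3.58.1 in R 4.3.3 was fitted to log2(TPM + 1), a pseudocount chosen here, over all 24674 genes with UK5099, butyrate and interaction terms, and p-values were adjusted by Benjamini-Hochberg. In a simulation of 24674 genes, 143 of 200 genes changed by UK5099 and 147 of 200 changed by butyrate were recovered. At 4 TPM or more these were 111 of 113 and 114 of 115, with 0 and 2 false calls. The planted changes were larger than any member's coefficient on TPM, and no overall shift between groups was planted. The figures therefore do not give recovery for changes of the members' size. Exonic lengths came from GENCODE M21, by gene identifier.

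Members and lists were chosen with earlier results of these data known. List genes were named if past both thresholds in any comparison and averaging 1 TPM or more in a group, at most 4 per list with the largest coefficients, and the 3 constitutive subunits always. Alternatives were a pseudocount of 0.1, only genes averaging 1 TPM or more, median of ratios scaling, voom on fragments, the replicate number as a block, a trended, robust prior, no limit on the coefficient, and leaving out each sample in turn. Voom with median of ratios scaling was added after seeing the data. Python 3.11.15, numpy 2.4.6, pandas 2.3.3 and matplotlib 3.10.9 were used.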

Additional observations from a re-analysis of the deposited data

Results flagged for a closer look

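For 6 genes the effect of one drug differed with the other drug present, by the interaction term of the limma fit at an adjusted p-value under 0.01. The coefficients on log2(TPM + 1) were 0.692 for B2m, 0.437 for H2-K1, 0.324 for H2-D1, 0.349 for Tap1, 0.381 for Tapbp and 0.805 for Psmb8. Without UK5099 replicate 1 or combination replicate 1, which stood apart from their groups, 6 genes passed as well.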

How the results depend on the processing

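Of 1323 repeats of a member's value under another setting, 1232 kept their side of the threshold, 43 lost the call and 33 gained it. Another 15 turned sign with either value past the threshold. A turn of sign where neither value passed is counted among the 1232. Tap1 with butyrate, for example, was at −0.159 as deposited and 0.131 under median of ratios scaling. The 15 belonged to 5 values and came from median of ratios scaling, voom on fragments and both together, in that order. Tap2 with butyrate was at 0.179, 0.203 and 0.203, Tap1 with the combination at 0.177, 0.117 and 0.196, Tap2 with the combination at 0.19, 0.138 and 0.217, B2m with the combination against UK5099 at 0.0974, 0.0875 and 0.0973, and H2-D1 there at 0.21, 0.203 and 0.212. These settings change the total each sample is divided by. The number of members past both thresholds moved as follows. With UK5099 it was 1 under either voom fit. With butyrate it was 0 under median of ratios scaling, and with the combination 0 under that scaling on TPM or on voom. For the combination against UK5099 and for the interaction it was 1 under either voom fit, and for butyrate against UK5099 1 under voom. With no limit on the coefficient the counts were 10, 6 and 8 for UK5099, butyrate and the combination, 3 for the combination against butyrate, 6 for the combination against UK5099, 7 for butyrate against UK5099 and 6 for the interaction. Leaving out a sample took the call from 26 values and gave it to 6. Of the 26, 11 were Nlrc5 under UK5099 (coefficients from −0.0649 to −0.0401 over the fits), 5 were Erap1 under UK5099 (−0.214 to −0.153), 5 were Tap1 in the combination against UK5099 (0.168 to 0.219), 4 were H2-D1 there (−0.126 to −0.0889, without UK5099 replicates 1 or 2 or combination replicates 2 or 3) and 1 was Tap2 under the combination (without combination replicate 2, adjusted p = 0.0102). The deviations gave no sign that the replicate numbers pair the samples. Those of same-numbered samples correlated between −0.107 and 0.0294 over 18 pairs, against −0.058 to 0.0737 over 36 pairs with different numbers. By the strict rule of correlating best with its own number in every other group, 1 of 12 samples did so. A replicate block kept 68 of 70 member values on their side of the threshold, lost 1 call and gained 1, and left the counts past both thresholds at 0, 1 and 1 for UK5099, butyrate and the combination. Depth limits Nlrc5 most, with 4 to 40 fragments per sample.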
